A study of Mus musculus with 7 samples.

Results

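The cells described here are the Gata4-negative, Nr2f2-positive cells of a single library made from E11.5 mouse gonads. Gata4 encodes a zinc finger factor of the early gonad's somatic cells, and Nr2f2 encodes COUP-TFII, an orphan nuclear receptor of mesenchymal and stromal cells. The members were chosen by the measured UMI counts of a few genes, so these counts are no finding about them. A cell belonged to the class if it had at least 1000 detected genes, no Gata4 UMI (unique molecular identifier, a tag that counts each captured RNA molecule once), at least 2 Nr2f2 UMIs, at most 1 Wnt6 UMI, at most 2 Upk3b UMIs, no Cdh5 or Pecam1 UMI, at most 1 UMI of Pax2 and Pax8 together, and under 20% of its UMIs from haemoglobin genes. These limits keep out most surface epithelium and its derivatives (Wnt6, Upk3b), endothelium (Cdh5, Pecam1), mesonephric epithelium (Pax2, Pax8) and red cells. The class held 3768 of the 8293 barcodes of the library, and 3768 of the 7972 with at least 1000 genes (47.3%, 95% exact binomial interval 46.2 to 48.4%). The series holds 52542 barcodes in all.

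The series followed gonads and ovaries of untreated C57BL/6J mice in 7 libraries, 5 from embryos between E11.5 and E18.5 and the others from pups at P1 and P5. The E11.5 sample is labelled gonad and the others ovary, the mice are described as wild type, and the labels give neither the sex nor the number of the E11.5 embryos. The dissection was of the gonad as a whole, with no sort named, so tissue attached to the gonad can be in the library. Each age is 1 library, there is no replicate, no test between ages or cell groups was possible, and every interval below covers counting error only. Levels are given as CPM, the UMIs of a gene per 1000000 UMIs of a whole group of cells, with 95% exact Poisson intervals. A UMI is counted at the 3′ end of a molecule, so the levels are not scaled by gene length, and they are compared between cell groups, not between genes.

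The mesenchyme around the E11.5 gonad is of several origins. The gonad lies on the mesonephros, a transient kidney of the intermediate mesoderm, beside the gut mesentery of the lateral plate mesoderm, the body wall and the somites. Hox genes, which are expressed in nested domains along the body axis, and lineage factors such as Foxf1 (visceral mesoderm), Pitx1 (hindlimb field and lower body wall), Myog (skeletal muscle) and Six2 (nephron progenitors) mark such origins.

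The 3768 cells carried 44191133 of the 93067485 UMIs of the library. A class cell had between 1696 and 50881 UMIs with a median of 10713.5, and a median of 3342.5 genes. Nr2f2, at chr7:70351944-70366735 of GRCm38, had between 2 and 23 UMIs per member with a median of 4. Mitochondrial genes took a median of 4.42% of a cell's UMIs. The barcode sequence of 173 class cells also occurs in another library of the series.

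Under the 7 gates other than Gata4, 4221 cells passed, of which 453 (the Gata4-positive comparator) had a Gata4 UMI. Gata4, at chr14:63198922-63271692, had 1 UMI in 252 of these cells, 2 UMIs in 104 and 3 or more in the remaining ones, up to 8. The share with a Gata4 UMI was 7.12% (5.64 to 8.84%) among the 1054 shallowest of the 4221 cells, while it was 132 of 1056, 132 of 1055 and 114 of 1056 cells (10.8%) in the deeper cells, taken in order of depth. A cell with 0 Gata4 UMIs can still hold the transcript, and Gata4-negative here means no counted molecule. In 253 haemoglobin-rich cells, which should lack these genes and show the free RNA of the droplets, 1.98% of cells had a Gata4 UMI at a median depth of 21828 UMIs.

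The cells just inside and just outside the rule are given for the same 5 genes at 2 of its borders. The 853 members with 2 Nr2f2 UMIs had 595 CPM of Meis2, 124 of Prrx1, 27.1 of Lhx9, 47.5 of Pitx1 and 126 of Foxf1. The 1014 cells with 1 Nr2f2 UMI that passed every other gate had 533, 97.2, 18.3, 46.9 and 158 CPM of these genes. At the Gata4 border the members, with no Gata4 UMI, had 609, 139, 26.4, 63.8 and 78.5 CPM, and the 252 cells with 1 Gata4 UMI had 593, 66.1, 90.3, 35.4 and 36.5 CPM. These values describe the threshold and were not tested.

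The label mesenchyme was set beside its markers. Of the 4 genes given as markers, Nr2f2 (434 CPM) is fixed by the rule, and the others were abundant. Hmga2, a chromatin protein of embryonic cells, had 1586 CPM (1574 to 1598) and a UMI in 99.3% of members. Sox11, a transcription factor of embryonic progenitors, had 780 CPM (772 to 788) and was seen in 97.1% of members, and Meis2, a homeodomain cofactor of Hox proteins, had 609 CPM (602 to 617) and was seen in 95.6%. In the haemoglobin-rich cells a UMI of these 3 genes was seen in 45.8, 23.3 and 17.0% of cells, at their greater depth. All 12 genes of the mesenchyme list had at least 10 CPM in the class, among them Pdgfra (68.2 CPM), a receptor of mesenchymal cells, Twist1 (66.0 CPM) and Col3a1 (359 CPM). The list summed to 4451 CPM in the class, 4111 CPM in the Gata4-positive comparator and 2963 CPM in all other cells. It includes Hmga2, Sox11 and Meis2, so its counts and sums in large part repeat these given markers. Of its 12 genes, 11 were within 2-fold of the Gata4-positive comparator. The other, Prrx1, was higher in the class, where 0.939% of all genes tested were higher.

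Markers of other cell types were present at different levels in the class as a whole. None of the 8 germ cell genes, the 8 immune genes or the 7 adrenal genes reached 10 CPM, and their summed levels were 11.2, 13.7 and 7.83 CPM. The erythroid list summed to 28.5 CPM, with Blvrb the most abundant gene (18.4 CPM), and the endothelial list to 37.0 CPM, with Egfl7 the most abundant (17.9 CPM). The tubule list summed to 53.8 CPM (Wfdc2, 22.5 CPM), the epithelial list to 103 CPM (Krt18, 55.0 CPM) and the supporting cell list to 190 CPM (Sox9, 75.8 CPM). The supporting cell list had 4 of 8 genes at 10 CPM or more, and its sum was close to the 208 CPM of the other E11.5 cells. Of its 5 genes with at least 20 CPM in either of these groups, Amhr2 was 2-fold lower in the class, where 1.87% of all genes were lower, and none was higher. The neural crest and neuron list summed to 52.3 CPM. Several of these RNAs came from small groups of cells.

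The class fell into 11 clusters when it was clustered without the genes of the lists (cell cycle genes included) and of the rule, and without Y-linked, Xist, Tsix, ribosomal, mitochondrial and haemoglobin genes. They are numbered by size, from 655 cells in cluster 1 to 33 in cluster 11. A cluster was called after a cell type list when at least 3 of the list's genes were 2-fold higher in it than in the other class cells. The list also needed at least as many genes among the cluster's leading genes as any other list. The mesenchyme list was not used for naming. Clusters high in Cdx2 or Foxa1 were left unnamed, and 9 clusters with 3080 cells got a list name. For naming, 10 CPM was added to both levels and a gene needed 10 UMIs in the cluster. Many list genes reached the 20 CPM minimum only through the cluster where they were high. The counts of list genes given for the named clusters and for cluster 11 thus repeat the filter, and for the named ones also the naming rule. The shares of all genes beside them are printed for scale. The clusters were made from the same cells, so what separates them is a description and no test.

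The mesenchyme list told some clusters apart from the rest. None of its 12 genes was 2-fold lower in cluster 1 (against 3.72% of all genes tested there) or cluster 2 (1.01%), and 1 was lower in cluster 7 (2.26%) and in cluster 9 (3.11%). In cluster 3, 2 were lower (1.73%), in cluster 4, 4 were lower (3.23%), and in clusters 5 and 6, 3 each (4.52 and 4.35%). In the other clusters most of the list was lower, with 9 of 12 in cluster 8 (6.25%), 8 in cluster 10 (7.19%) and 8 in cluster 11 (6.75%). The list summed to 2299.5, 2911 and 2322 CPM in these 3 clusters and to between 3937 and 6089 CPM in the other 8. Genes of the list were also 2-fold higher, with 4 each in cluster 1 (against 3.99% of all genes) and cluster 9 (7.09%). In clusters 5 (1.51%) and 6 (2.41%) 2 each were higher, in clusters 3 (1.58%) and 10 (5.25%) 1 each, and in clusters 2, 4, 7, 8 and 11 none. The leading genes of clusters 10 and 11, described with them, were of neural crest and of epithelium and not of mesenchyme.

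**Figure D1:**
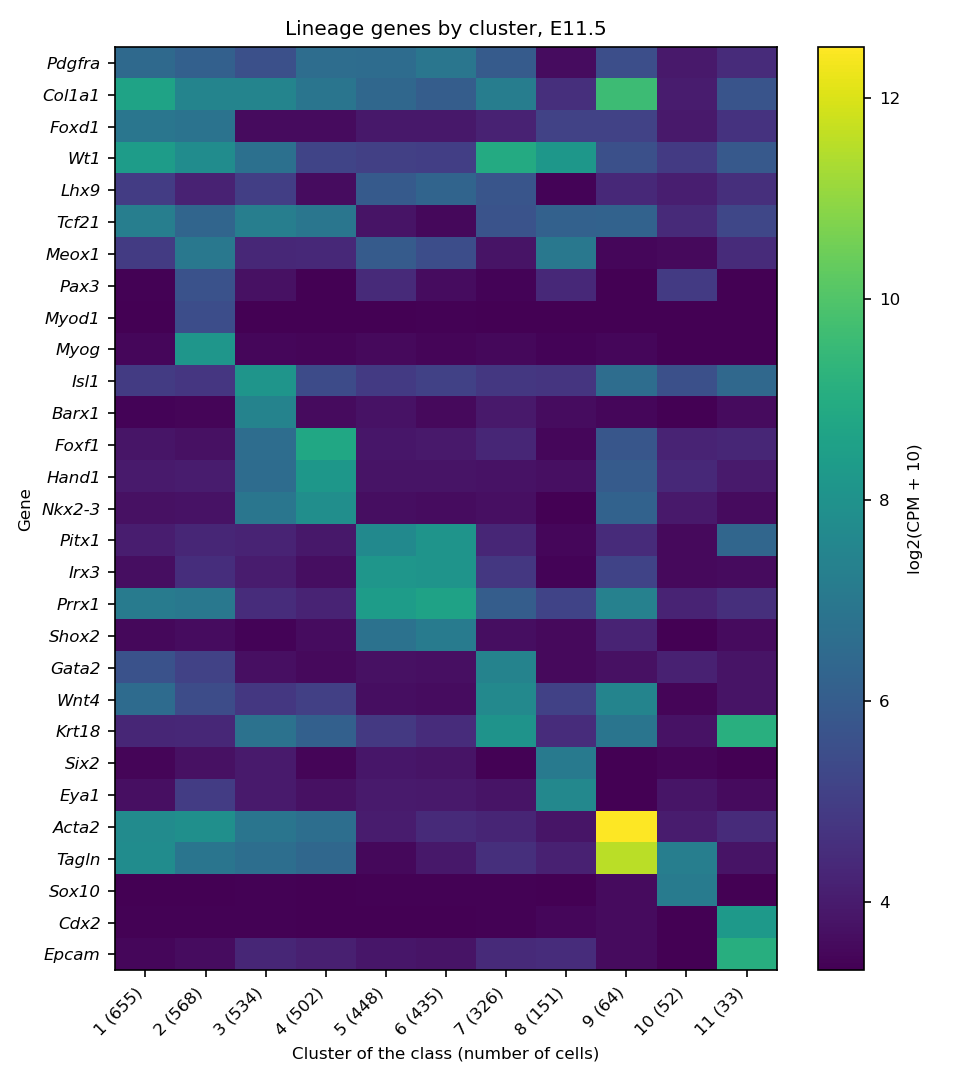
Level of lineage genes in the 11 clusters of the class, as log2(CPM + 10), where 10 is added so that genes at 0 can be drawn. Most factors are bright in a single column or a pair of columns, such as Myog in cluster 2 (271 CPM), Foxf1 in cluster 4 (438 CPM), Pitx1 in clusters 5 and 6 (194 and 260 CPM), Six2 in cluster 8 (126 CPM) and Sox10 in cluster 10 (132 CPM).

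Clusters 5 (448 cells) and 6 (435 cells) were limb and body wall-like, together 23.4% of the class. Of the 11 list genes, 6 reached 20 CPM and were 2-fold higher in cluster 5, where 1.51% of all genes were higher, and 7 in cluster 6, where 2.41% were. Pitx1, at chr13:55825051-55836192, had 194 and 260 CPM in these clusters and between 1.22 and 11.9 CPM in 8 of the other 9, with 71.9 CPM in the 33 cells of cluster 11. Irx3 and Irx5, homeobox genes of the early limb and flank, had 275 and 141 CPM in cluster 5 and 262 and 165 CPM in cluster 6, and Irx3 stayed at or below 26.0 CPM elsewhere.

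Further limb field genes followed the same pattern in the pair. Shox2, a homeobox gene of the proximal limb, had 101 and 131 CPM and at most 8.65 CPM in any other cluster. Prrx1, a factor of limb and flank mesenchyme, had 328 and 381 CPM, with 154 CPM or less elsewhere. Tbx4, which marks the hindlimb, had 2.44 and 7.04 CPM, and Tbx5, which marks the forelimb, had 1.11 and 0.782 CPM. Cluster 5 was high in the S phase list (2471 CPM summed, against 1368 CPM in cluster 6) and cluster 6 in the G2 and M phase list (3248 against 927 CPM). The pair thus differed in cell cycle genes, although the listed ones had been held out.

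Clusters 3 (534 cells) and 4 (502 cells) were gut mesenchyme-like, together 27.5% of the class. In cluster 4, 6 of the 8 list genes were 2-fold higher, 1 was lower and 1 did not reach 20 CPM, where 2.37% of all genes were higher. Foxf1, a forkhead factor of visceral mesoderm that Hedgehog signals maintain, had 438 CPM there, 87.5 CPM in cluster 3 and 44.3 CPM or less in the other clusters. Hand1 and Nkx2-3, factors of lateral plate and gut mesoderm, had 281 and 224 CPM in cluster 4. Ptch1, the Hedgehog receptor and a direct target of the pathway, had 179 CPM in cluster 4, while the next highest value was 71.9 CPM in cluster 11.

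Cluster 3 carried a different set of gut genes. Barx1, a homeobox gene of stomach mesenchyme, had 161 CPM in it and 5.39 CPM or less in every other cluster. Isl1 had 265 CPM and Nefm, a neurofilament gene, 355 CPM. In all, 4 of the 8 list genes were 2-fold higher in cluster 3, where 1.58% of all genes were, and 2 did not reach 20 CPM. The endodermal ligand Shh had 0 and 0.957 CPM in clusters 3 and 4 and 303 CPM in cluster 11.

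Cluster 2 (568 cells) was muscle precursor-like, with 4 of the 6 genes of its list 2-fold higher and the others under 20 CPM, where 1.11% of all genes were higher. Myog, which drives myoblast differentiation and lies at chr1:134289989-134292548, had 271 CPM there and 1.78 CPM or less in every other cluster. Very few cells carried it. A Myog UMI was found in 61 of the 568 cells, and in the whole class in 101, of which 35 cells had 10 or more and held 95.5% of all Myog UMIs, with up to 191 in a cell. In the haemoglobin-rich cells 3.16% had a Myog UMI, while 2.68% of the class and 10.7% of cluster 2 did. The median depth was 21828 UMIs in the haemoglobin-rich cells and 10713.5 in the class, so these shares cannot be compared directly. A cell with few Myog UMIs was thus not told apart from background. Of the 253 haemoglobin-rich cells 1 had 10 or more Myog UMIs.

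At a finer resolution (1.0 in place of 0.6) cluster 2 came apart into a group of 204 and a group of 357 of its cells. The 204 held 2086 of the 2091 Myog UMIs of the cluster, at 654 CPM, and had 85.2 CPM of Myod1 and 95.9 CPM of Pax3, a factor of myotomal progenitors. They also had 80.5 CPM of Pax1, a sclerotome gene, and 232 CPM of Meox1 and 155 CPM of Tcf15, which mark somites. The 357 had 0.901 CPM of Myog, and 322 CPM of Wt1 and 144 CPM of Foxd1, genes of the nephrogenic mesenchyme and renal stroma. The muscle genes were thus in the smaller group, and the finer muscle precursor-like cluster that held it had 205 cells, 5.44% of the class. Most of the 204 cells had no Myog UMI, however. A UMI of Myog was found in 56 of them (27.5%), of Myod1 in 51 and of Pax3 in 73. Meox1 was found in 135 and Tcf15 in 111.

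The promoters of the muscle genes that led cluster 2 are shown because these genes led the cluster that Myog marks. Capitals mark the E-box letters CAGCTG, or CACCTG and its reverse complement CAGGTG, the sites that myogenic bHLH proteins such as the product of Myog are known to bind, searched on both strands in the 250 bases before the RefSeq start. CAGCTG was present in 3 of the 8 leading genes (Mylpf, Acta1, Myl1) and in 4271 of all 32851 RefSeq promoter windows, and CACCTG or CAGGTG in 2 of the 8 (Tnnc2, Tnnt1) and in 5657 of all. The sequences are from RefSeq on GRCm38.p6, on the strand of the gene, and end where an annotated exon begins.
Mylpf, fast skeletal regulatory myosin light chain, plus strand of chr7:127211358-127211607: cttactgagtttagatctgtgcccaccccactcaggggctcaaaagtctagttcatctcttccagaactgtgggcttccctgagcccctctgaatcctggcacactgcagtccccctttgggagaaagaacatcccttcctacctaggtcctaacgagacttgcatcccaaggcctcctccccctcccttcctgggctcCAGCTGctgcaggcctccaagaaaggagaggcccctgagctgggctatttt
Acta1, skeletal muscle actin, minus strand of chr8:123894776-123895025: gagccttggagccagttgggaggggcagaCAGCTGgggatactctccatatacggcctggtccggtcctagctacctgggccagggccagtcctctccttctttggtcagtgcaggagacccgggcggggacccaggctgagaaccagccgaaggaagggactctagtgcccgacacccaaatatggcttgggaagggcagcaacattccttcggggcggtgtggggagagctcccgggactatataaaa
Tnnt1, slow skeletal troponin T, minus strand of chr7:4516005-4516225: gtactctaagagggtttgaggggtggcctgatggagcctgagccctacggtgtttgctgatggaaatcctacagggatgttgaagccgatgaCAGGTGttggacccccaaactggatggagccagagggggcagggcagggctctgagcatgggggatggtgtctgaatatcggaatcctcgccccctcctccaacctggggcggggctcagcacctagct
A match describes the letters of the window and is not a binding site.

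The genes with these promoters had the following levels. Mylpf had 298 CPM in cluster 2 and between 4.33 and 6.22 CPM in every other cluster, a narrow range, and Acta1 had 165 CPM in cluster 2, 109 CPM in cluster 9 and 3.19 CPM or less elsewhere. Myog itself had none of these letters in its window.

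Cluster 9 (64 cells) was mural-like, with 8 of the 9 genes of the list for pericytes and smooth muscle 2-fold higher and the other under 20 CPM, where 7.09% of all genes were higher. Acta2, smooth muscle actin, at chr19:34241090-34255590, had 5829 CPM there, 227 CPM or less elsewhere and 4.29 CPM in cluster 8. Tagln had 2979 CPM, Actg2, an enteric smooth muscle actin, 963 CPM and Cnn1, calponin, 395 CPM. Of the 12 Notch genes, 6 were 2-fold higher in this cluster and 4 did not reach 20 CPM. Heyl, a Notch target, had 95.2 CPM and Hey1 had 72.5 CPM. The mural-like share was 1.70% of the class here, 19.2% at a coarser resolution (0.3) and 6.24% at a finer one (1.0).

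The promoters of Actc1 and Myl9, leading genes of cluster 9, are shown with the CArG box in capitals, the serum response factor site of smooth and cardiac muscle genes, searched on both strands. The box was found in both, in Acta1 of cluster 2, and in 1.47% of all windows, while Acta2, Cnn1 and Tpm1 had no match in these 250 bases. Tagln, Actg2 and Fn1 were not analysed here.
Actc1, cardiac actin, minus strand of chr2:114052888-114053125: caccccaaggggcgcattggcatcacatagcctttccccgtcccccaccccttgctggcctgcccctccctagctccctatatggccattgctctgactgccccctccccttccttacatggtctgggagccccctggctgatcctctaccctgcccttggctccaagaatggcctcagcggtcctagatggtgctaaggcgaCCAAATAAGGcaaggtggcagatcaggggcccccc
Myl9, regulatory light chain of smooth muscle myosin, plus strand of chr2:156775214-156775419: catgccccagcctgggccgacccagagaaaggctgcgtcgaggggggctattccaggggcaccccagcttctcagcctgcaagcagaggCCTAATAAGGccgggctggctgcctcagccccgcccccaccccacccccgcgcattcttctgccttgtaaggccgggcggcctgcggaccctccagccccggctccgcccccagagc
Actc1 had 1124 CPM in cluster 9, 317 CPM in cluster 2 and 30.4 CPM or less in the other clusters, and Myl9 had 1483 CPM in cluster 9 against 112 CPM in the other class cells.

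Cluster 8 (151 cells) was nephron progenitor-like. Of the 7 list genes, 6 were 2-fold higher, where 2.36% of all genes were. Six2, which keeps nephron progenitors undifferentiated and lies at chr17:85684277-85688274, had 126 CPM there and 6.00 CPM or less in every other cluster. Eya1 had 184 CPM, Sall1 54.5 CPM, Uncx 113 CPM and Gdnf, the ligand of the ureteric bud receptor, 21.4 CPM. Pdgfra, a mesenchyme marker, was at 2.45 CPM in this cluster.

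Cluster 7 (326 cells) was epithelial-like by its list, with 5 of its 8 genes higher and the others under 20 CPM, where 2.59% of all genes were higher, although its leading genes were mostly not epithelial. Krt18 had 251 CPM and Krt19 88.2 CPM there. Igfbp3 (620 CPM), Aldh1a2 (454 CPM), which makes retinoic acid, Wt1 (477 CPM) and Wnt4 (190 CPM) were higher in it than in any other cluster, and Gata2 had 161 CPM against 39.4 CPM or less elsewhere. When the Gata4-positive cells were clustered with the class, this cluster was divided, with 155 cells in a group led by Igfbp3 and Gata2 and 126 in a group led by Wt1 and Foxd1.

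Cluster 1 (655 cells) passed no name. Of the 24 matrix genes, 7 were 2-fold higher in it, where 3.99% of all genes were, and 5 did not reach 20 CPM. Col1a1 had 392 CPM and Cxcl12, a chemokine, 548 CPM. Foxd1 and Tbx18, which mark renal and ureteric stroma, had 113 and 93.8 CPM, and Wt1, the Wilms tumour factor of intermediate mesoderm, 332 CPM. All 13 genes of the G2 and M phase list were 2-fold lower in cluster 1, against 3.72% of all genes lower. Top2a, a gene of dividing cells, had 55.7 CPM in it and between 222 and 664 CPM in the other clusters.

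Cluster 10 (52 cells) was neural crest and neuron-like, with 7 of the 10 list genes higher and the others under 20 CPM, where 5.25% of all genes were higher. Sox10 and Foxd3, factors of neural crest cells, had 132 and 103 CPM, and each had 2.16 CPM or less in every other cluster. Its cells had a median of 21793.5 UMIs, the highest of the clusters. Cluster 11 (33 cells) stayed unnamed. Of the 8 tubule and 8 epithelial genes, 5 and 4 reached 20 CPM and were 2-fold higher in it, where 9.98% of all genes were, but Cdx2 (305 CPM), a factor of gut endoderm, and Shh (303 CPM) went against a tubule name. Its other leading genes included Rbp4 (606 CPM), a retinol carrier, Epcam (527 CPM), an epithelial adhesion molecule, Cldn6 (552 CPM) and Bex1 (1026 CPM). Of its cells 9 (27.3%) were among the 5% with the highest doublet scores, against 4.72% of the class.

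Hox genes, named by complex and by paralog number from anterior to posterior, differed between the clusters. Of 39 Hox genes, 23 had at least 10 CPM in the class. Among them were Hoxc10 (161 CPM), Hoxc8 (141 CPM), Hoxc9 (101 CPM), Hoxa9 (87.5 CPM) and Hoxa10 (82.1 CPM). At the posterior end Hoxc12 and Hoxc13 had no UMI, which with 3 UMIs as the limit allows up to 0.0679 CPM, and Hoxa13 had 0.204 CPM and Hoxb13 0.0226 CPM. Paralog group 10 summed to 263 CPM in the class, group 11 to 23.7 CPM and groups 12 and 13 to 3.60 CPM.

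The limb and body wall-like clusters and the gut mesenchyme-like clusters were opposite in this respect. The 3 genes of paralog group 10 summed to 442 and 432 CPM in clusters 5 and 6, and to 45.3 and 27.0 CPM in clusters 3 and 4. Paralog groups 1 to 4 summed to 134 and 136 CPM in clusters 5 and 6, and to 285 and 394 CPM in clusters 3 and 4. Hoxb4 had 128 CPM in cluster 4 and 34.2 and 32.2 CPM in clusters 5 and 6, while Hoxa10 had 11.8 CPM in cluster 4 and 132 CPM in each of clusters 5 and 6, and Hoxc10 had 299 and 292 CPM in the pair. Between these pairs, the gut mesenchyme-like cells were higher in the anterior groups and the limb and body wall-like cells in group 10. The size of the group 10 difference mixes cluster with sex-linked kind, since clusters 5 and 6 held almost no cell with Y-linked RNA. The same holds for groups 1 to 4, which were not read by kind. In the cells with a UMI of Xist, the RNA of the inactive X chromosome of female cells, and none of a Y-linked gene, Hoxa10 had 75.8, 19.9, 133 and 130 CPM in clusters 3, 4, 5 and 6, and Hoxc10 had 68.9, 14.6, 300.2 and 293 CPM.

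The nephron progenitor-like cells of cluster 8 had the most posterior Hox genes. Paralog group 10 summed to 616 CPM there, group 11 to 151 CPM and groups 12 and 13 to 22.7 CPM, and the next highest values of groups 11 and of 12 and 13 in any other cluster were 44.7 and 5.83 CPM. Hoxd11 had 91.2 CPM and Hoxa11 52.7 CPM, genes that act together in metanephric mesenchyme. Hoxb1, an anterior gene, was also highest in cluster 8 (36.7 CPM against 6.33 CPM or less). Paralog groups 1 to 4 summed to 310 CPM in cluster 8, above the 285 CPM of cluster 3, so high anterior groups were not particular to the gut mesenchyme-like cells. In cluster 11 no Hox gene was above 44.7 CPM, the value of Hoxa10.

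**Figure D2:**
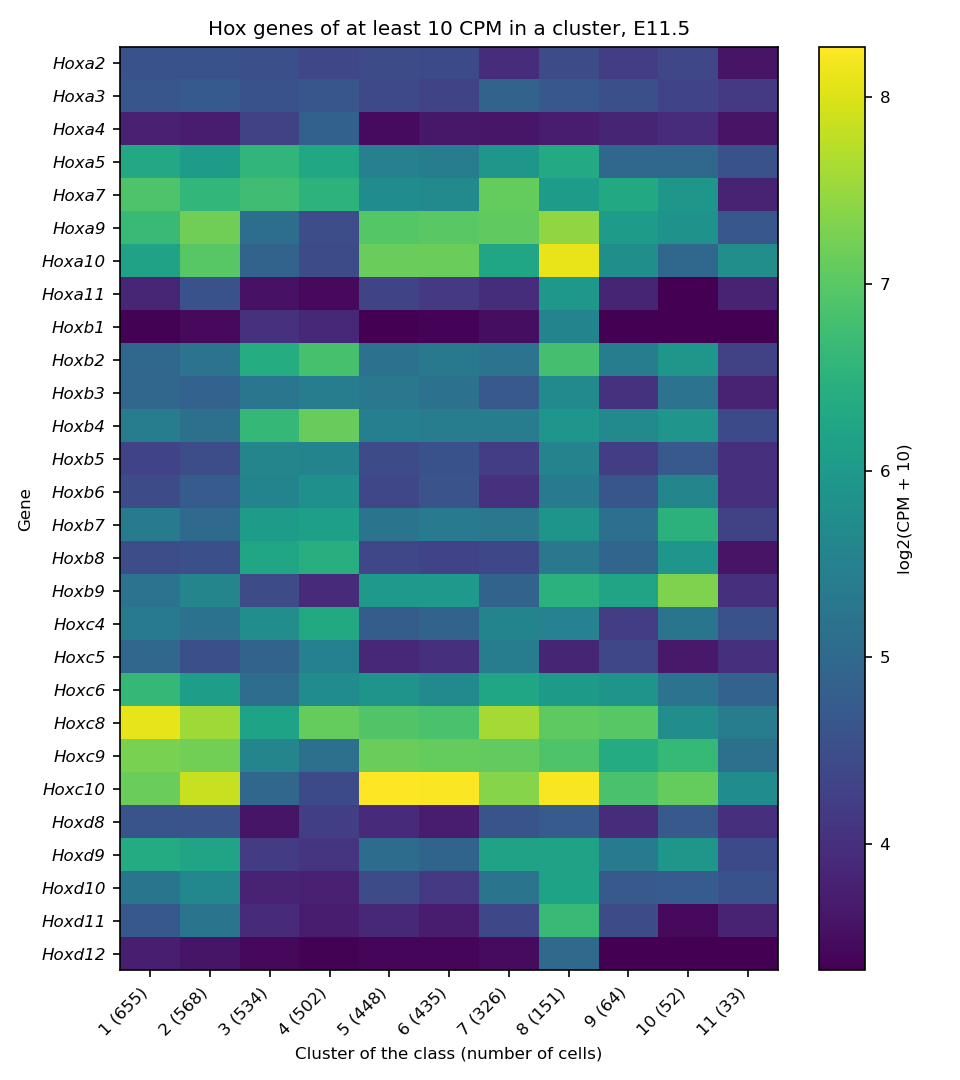
Level of the 28 Hox genes with at least 10 CPM in some cluster, as log2(CPM + 10), ordered by complex and paralog number. Clusters 3 and 4 are bright in Hoxb2 to Hoxb8 and dark in Hoxa10 and Hoxc10 (11.8 CPM of Hoxa10 in cluster 4), clusters 5, 6 and 8 are the reverse for Hoxc10 (between 288 and 299 CPM), and Hoxd11 is bright in cluster 8 (91.2 CPM).

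The clusters also differed in sex-linked RNA. The library held RNA of both sexes. In the class 988 cells (26.2%, 24.8 to 27.7%) had a UMI of the Y-linked genes Ddx3y, Eif2s3y, Kdm5d, Uty, Zfy1, Zfy2, Usp9y or Sry, 2675 (71.0%) had a UMI of Xist, and 177 (4.70%) had both. A Y-linked UMI was found in 41.7% of the Gata4-positive comparator and in 31.6% of all other cells. None of these genes was used for clustering.

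In cluster 5 a Y-linked UMI was found in 9 of 448 cells (2.01%) and in cluster 6 in 14 of 435 (3.22%), while Xist was found in 97.3 and 99.1%. Cluster 3 was the reverse, with a Y-linked UMI in 344 of 534 cells (64.4%, 60.2 to 68.5%) and Xist in 29.0%. Nearly all limb and body wall-like cells thus had Xist, and most cells of cluster 3 had Y-linked RNA.

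Among the cells with a UMI of only 1 of the 2 kinds, 72.4% in cluster 3 were of the Y-linked kind, and 0.693 and 0.475% in clusters 5 and 6. After every cell was thinned to 3000 UMIs, the share with a Y-linked UMI was 30.3% in cluster 3, 1.14% in cluster 5 and 0.932% in cluster 6. Cluster 3 thus also stood above clusters 5 and 6 at equal depth. The 205 cells of the finer muscle precursor-like group also had few, 5 (2.44%), with Xist in 99.0%, whereas the 358-cell group beside it had 22.1%. Cluster 8 had 10.6% and the others between 26.9 and 45.5%, except cluster 2 as a whole with 15.3%. Each cluster held some cells of the other kind, although clusters 5 and 6 had only 3 and 2 cells with Y-linked RNA and no Xist.

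Lineage genes were therefore also read in the cells with Xist and no Y-linked UMI alone, 116 in cluster 3, 247 in cluster 4, 430 in cluster 5 and 419 in cluster 6, a choice made after seeing the data. In these cells Pitx1 had 9.48, 5.30, 191 and 261 CPM in clusters 3 to 6, and Irx3 7.76, 3.31, 277 and 263 CPM. Foxf1 had 122 CPM in cluster 3, 431 CPM in cluster 4 and 3.66 CPM or less in the pair. These differences were thus present among cells of the same kind.

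Other genes of cluster 3 differed between its 2 kinds of cells. Barx1 had 208 CPM (194 to 224) in its 305 cells with Y-linked RNA alone and 6.89 CPM (2.98 to 13.6) in its 116 cells with Xist alone, and Nefm had 427 and 106 CPM. Isl1 was at 270 and 253 CPM, with overlapping intervals. The levels of Barx1 and Nefm given for cluster 3 thus join unlike cells. The group 10 Hox genes differed between the 2 kinds in further clusters too. Hoxa10 had 3.88 CPM in the Y-linked kind and 75.8 CPM in the Xist kind of cluster 3, 0.940 and 19.9 CPM in cluster 4, 33.5 and 76.4 CPM in cluster 1, 65.5 and 127 CPM in cluster 2, and 23.1 and 76.9 CPM in cluster 7. Hoxc10 was likewise lower in the Y-linked kind of these 5 clusters, with 5.27 and 68.9 CPM in cluster 3 and 131 and 236 CPM in cluster 2. In cluster 2 the 2 kinds also lay unevenly over the finer groups. A Y-linked UMI was found in 2.44% of the 205-cell muscle precursor-like group and in 22.1% of the 358-cell group, so the cluster 2 values join unlike cells. In cluster 8, with only 11 cells of the Y-linked kind, Hoxa10 had 376 CPM in them and 258 CPM in the Xist kind. Gonads of several animals were used, and the labels do not say which cells came from which embryo, so sex and embryo cannot be told apart.

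**Figure D3:**
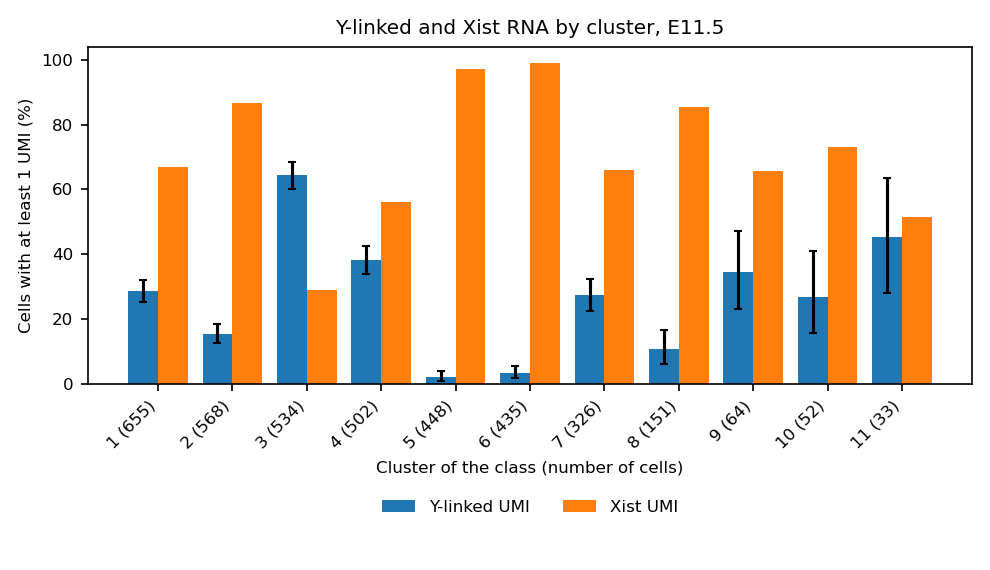
Share of cells with at least 1 UMI of a Y-linked gene (blue, with 95% exact binomial intervals) and of Xist (orange) in each cluster of the class. Clusters 5 and 6 lie at 2.01 and 3.22% for Y-linked genes and above 97% for Xist, and cluster 3 at 64.4% and 29.0%.

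The class was next set beside the 453 Gata4-positive cells that passed the same other gates. These had a median of 11119 UMIs. Gata4 chose the 2 groups, so the differences of other genes are given as a description. Of 6387 genes with at least 20 CPM in either group and outside the rule, 60 (0.939%) were at least 2-fold higher in the class and 155 (2.43%) at least 2-fold lower. The median log2 ratio over all genes tested was −0.02.

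Of the 15 genes with the highest ratios, 10 had their highest level in the limb and body wall-like clusters 5 and 6. Irx3 had 71.6 CPM (69.1 to 74.1) in the class and 14.4 CPM in the comparator, a ratio of 4.96 (3.98 to 6.27). Prrx1 had 139 against 48.5 CPM, Shox2 30.7 against 6.41 CPM, and Tcf15 49.6 against 11.2 CPM. Crabp1, a retinoic acid binding protein, had 324 against 108 CPM, a ratio of 3.01 (2.77 to 3.27), and Fst, follistatin, an inhibitor of activins and BMPs, had 24.7 against 4.10 CPM. Against the 132 Gata4-positive cells with no Nr2f2 UMI, however, Fst was within 2-fold, with a log2 ratio (10 CPM added) of 0.39 in place of 1.30 and a counting interval of the ratio from 0.974 to 2.43. Acta2 (221 against 79.1 CPM) was highest in cluster 9 and Saa1, an acute phase gene (24.6 against 4.10 CPM), in cluster 4.

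Of the 15 genes with the lowest ratios, 13 had their highest level in the class in the 33 cells of cluster 11. Rbp4 had 9.44 CPM (8.55 to 10.4) in the class and 230 CPM (217 to 242) in the comparator, Onecut2 1.90 against 76.8 CPM, Epcam 11.4 against 118 CPM and Cdx2 3.87 against 44.4 CPM. These RNAs came from a few cells. When both groups were clustered together, 82 cells formed a group led by Rbp4, Epcam and Cldn6, of which 48 were Gata4-positive, 10.6% of all such cells, and 33 of its other 34 were cluster 11. Without that group the log2 ratio of Rbp4 (10 CPM added) went from −3.62 to −0.29 and that of Onecut2 from −2.87 to −0.02, and those of Cldn7, Ambp, Fam183b and Foxa1 turned to between 0.02 and 0.07. Without it 139 genes were 2-fold lower and 58 higher.

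Kctd14 and Nr1h5 kept low values in the class without that group, with log2 ratios of −2.98 and −2.30. That of Kctd14, −2.76 in the class as chosen, was −1.86 when at least 4 Nr2f2 UMIs were asked for and −1.44 when Wnt6, Upk3b, Pax2 and Pax8 had to be at 0. Against the 132 Gata4-positive cells with no Nr2f2 UMI, however, the log2 ratio of Nr1h5 was 0.197. Of the early gonad factors, 7 of 12 were tested, 3 were 2-fold lower in the class (against 2.43% of all genes) and none higher (0.939%), and their median log2 ratio was −0.78. Lhx9, which the genital ridge needs to form, had 26.4 against 118 CPM, Gata6, the paralog of Gata4, 54.8 against 230 CPM and Zfpm2, the FOG2 partner of GATA4, 5.11 against 21.9 CPM. When both groups were clustered together, Lhx9 had 121 CPM in a group led by Kctd14 and Wt1. It had 65.2 and 50.9 CPM in the limb and body wall-like groups and 43.2 CPM or less in the others. The Lhx9 level of the class thus includes that of limb and body wall-like cells. Zfpm2 reached the 20 CPM minimum only in the comparator, where it was high, so its place in the count repeats the filter. Wt1 had 149 against 239 CPM and Emx2 48.3 against 55.6 CPM, both within 2-fold. Nr5a1, the steroidogenic factor of the gonad, had 0.950 CPM (0.685 to 1.28) in the class and 6.41 CPM in the comparator.

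**Figure D4:**
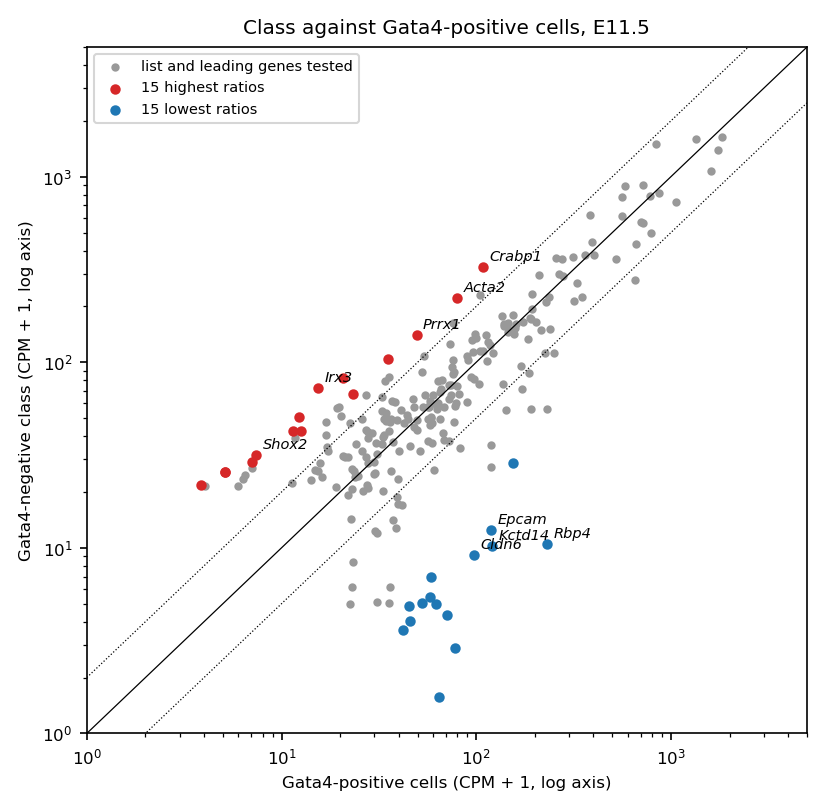
Levels of list and leading genes in the Gata4-negative class (vertical) and in the Gata4-positive comparator (horizontal), as CPM + 1 on log axes, for genes with at least 20 CPM in either group. The solid line is equality and the dotted lines are 2-fold; the genes with the 15 lowest ratios (blue) lie far below it, with Rbp4 at 9.44 against 230 CPM, and those with the 15 highest (red) closer above it, with Irx3 at 71.6 against 14.4 CPM.

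In most signalling lists few genes were past 2-fold, and their counts are set against the 0.939% of all genes that were higher and the 2.43% that were lower. Of the retinoic acid genes, 4 of 8 tested were higher in the class (Rdh10, which makes retinaldehyde, Crabp1, Crabp2 and Stra6, a retinol receptor) and none lower, with a median log2 ratio of 0.73. Of the Hox genes, 2 of 18 (Hoxa10, Hoxc10) were higher and none lower. Both were lower in the Y-linked kind of several clusters, and a Y-linked UMI was found in 26.2% of the class and 41.7% of the comparator. The part of this in the 2 ratios was not tested. Rspo3, a Wnt agonist, was higher (65.9 against 26.2 CPM) and Sfrp2, a Wnt inhibitor, lower (54.2 against 141 CPM) among 11 Wnt genes tested. Bmper was the sole lower and Fst the sole higher of 8 BMP genes, and Shh was the sole gene of 5 in the Hedgehog list past 2-fold, lower in the class. Within the class Shh had 303 CPM in cluster 11 and 0.527 CPM in the other cells. The joint group that held cluster 11 also held 48 Gata4-positive cells, so the Shh value describes that small group and not the class as a whole. All tested genes of the FGF (5), PDGF (3), Notch (3), TALE cofactor (7), SoxC (3), imprinted growth (11), S phase (12) and G2 and M phase (13) lists were within 2-fold. With so few genes in a list and so few genes past 2-fold in all, having none is near the background and is not particular to these lists.

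Where the Gata4-positive cells lay among the clusters was uneven. In the joint clustering 182 of the 453 (40.2%) fell in the group led by Isl1, Nefm and Barx1, where they made up 28.8% (25.3 to 32.5%) of 633 cells. A further 89 were in a group of 477 led by Kctd14, Wt1 and Lhx9, and 65 in the mural group of 330. In the limb and body wall-like groups 5 of 506 and 2 of 393 cells were Gata4-positive. Gata4 was also seldom counted in some groups without Pitx1 among their leading genes, with 9 of 592 cells in the Foxf1-led gut group, 2 of 245 in the group led by Igfbp3 and Gata2 and 4 of 203 in the muscle precursor-like group.

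Against all 4204 other E11.5 cells with at least 1000 genes, 41 of 6089 genes (0.673%) were 2-fold higher in the class and 114 (1.87%) lower. Of the 11 limb and body wall genes, 4 reached 20 CPM and were among the higher. Shox2 of these reached the 20 CPM minimum only in the class, where it was high. The count of list genes thus at least partly repeats the filter. Prrx1 (2.88-fold), Crabp1 (2.86-fold), Barx1 (4.13-fold) and Twist1 (2.02-fold) were also higher. Kctd14 was lower, with 9.21 against 228 CPM. Of these other cells, 2261 failed the Nr2f2 gate alone and 453 the Gata4 gate alone, so most of them passed the gates for surface epithelium, endothelium, mesonephric epithelium and red cells.

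The same gates at the later ages gave far fewer cells, 1138 at E12.5 and then, in the order of the ages, 665, 945, 254, 615 and 818. They made up 26.8% of the cells with at least 1000 genes at E12.5 and between 6.79 and 15.4% after that. Each age is 1 library, so age, dissection and library cannot be told apart, and the values are set side by side without a test.

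Several genes of single lineages were seen at E11.5 and hardly later. Pitx1 had 63.8 CPM in the class at E11.5 (2820 UMIs), 0.186 CPM at E12.5 (2 UMIs) and no UMI in the gated cells of the other 5 libraries. Foxf1, at chr8:121084386-121088144, had 78.5 CPM at E11.5 and at most 0.284 CPM later, Nkx2-3 50.3 CPM and at most 0.0931 CPM, and Myog 48.2 CPM and at most 0.741 CPM. The muscle precursor list summed to 70.9 CPM at E11.5 and to 1.23 CPM or less later, and the gut mesenchyme list was 295 CPM at E11.5, 27.7 CPM at E12.5 and 1.89 CPM at P5. The limb and body wall list summed to 213 CPM at E11.5, with 5 genes at 10 CPM or more, and to between 29.1 and 59.3 CPM later, when Prrx2 alone reached 10 CPM. The nephron progenitor list summed to 94.6, 99.3, 76.3 and 91.7 CPM from E11.5 to E16.5 and to 39.9, 38.7 and 41.2 CPM at E18.5, P1 and P5, but these sums came from different genes. Itga8, an integrin subunit, had 16.9 CPM at E11.5 and 91.0 CPM at E12.5, whereas Six2 had 7.38 CPM at E11.5 and at most 0.199 CPM later, and Eya1 13.9 CPM and at most 2.61 CPM.

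The whole libraries were similar for Pitx1 and Foxf1. Over all cells, Pitx1 had 44.8 CPM at E11.5 and 0.307 CPM or less later, and Foxf1 87.7 CPM at E11.5 and 1.23 CPM or less later. Irx3 was different, since it stayed between 68.3 and 119 CPM over all cells of the later libraries but was between 0.931 and 6.67 CPM in the gated cells there.

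Hmga2, Meis2 and Sox11, given as markers of the class, were lower in the gated cells at every later age than at E11.5. The mesenchyme list was not, with 4451 CPM at E11.5, 4165 and 3479 CPM at E12.5 and E14.5, and between 4960 and 7651 CPM from E16.5 on. That list includes Hmga2, Meis2 and Sox11, so its sums join these markers with other genes such as Col3a1. RNA of other cell types was higher in the gated cells at several later ages. The germ cell list summed to 11.2 CPM at E11.5, 267 CPM at E14.5, with 5 of 8 genes at 10 CPM or more, 451 CPM at P1 and 92.3 CPM at P5. Its most abundant gene at P1 was Dppa3 (293 CPM). The erythroid list summed to 28.5 CPM at E11.5 and 285 CPM at P1, when Blvrb had 125 CPM and Car2 96.8 CPM, and the supporting cell list to 190 CPM at E11.5 and between 241 and 446 CPM later. The part of these RNAs in the values by age was not tested. Hmga2 had 1586, 899, 287, 55.4, 11.8, 9.56 and 17.0 CPM in the order of the ages. Meis2 had 609 CPM at E11.5, 462 CPM at E12.5 and between 103 and 254 CPM later, and Sox11 780, 269, 321, 158, 170, 54.0 and 63.8 CPM. Of these, Hmga2 had the widest range. Igf2bp1, an RNA-binding protein of the Lin28 and Hmga2 network, had 160 CPM at E11.5 and 0.757 CPM at P5, and Nr2f1 211 and 10.8 CPM. Nr2f2 itself, which the gates require, was between 371 and 595 CPM at every age.

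The Hox list summed to 1220 CPM at E11.5 and to 399 CPM at P5. Hoxc10 had 161, 40.9, 17.8, 16.9, 17.4, 12.6 and 13.2 CPM in the order of the ages, and Hoxa10 had 82.1 CPM at E11.5 and 3.59 CPM at P5. Hoxc8 had 141 CPM at E11.5, 174 CPM at E12.5 and between 43.0 and 58.1 CPM later. Hoxd9 was an exception, with 37.3 CPM at E11.5 and between 52.3 and 74.8 CPM at every later age.

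Stromal genes were higher later. Dcn, the matrix proteoglycan decorin, had 54.3, 462, 279, 927, 827, 1287 and 2416 CPM. Col3a1 had 359 CPM at E11.5 and between 515 and 2489 CPM later, and the matrix list summed to 1963 CPM at E11.5 and to 13717 CPM at P5. The mural list summed to 542 CPM at E11.5, 358 and 491 CPM at E12.5 and E14.5, and between 731 and 1798 CPM from E16.5 on. The part of mural-like cells in the matrix values was not tested. Nr5a1 had 0.950 CPM at E11.5, 5.58 CPM at E12.5 and 15.9 CPM at P1.

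**Figure D5:**
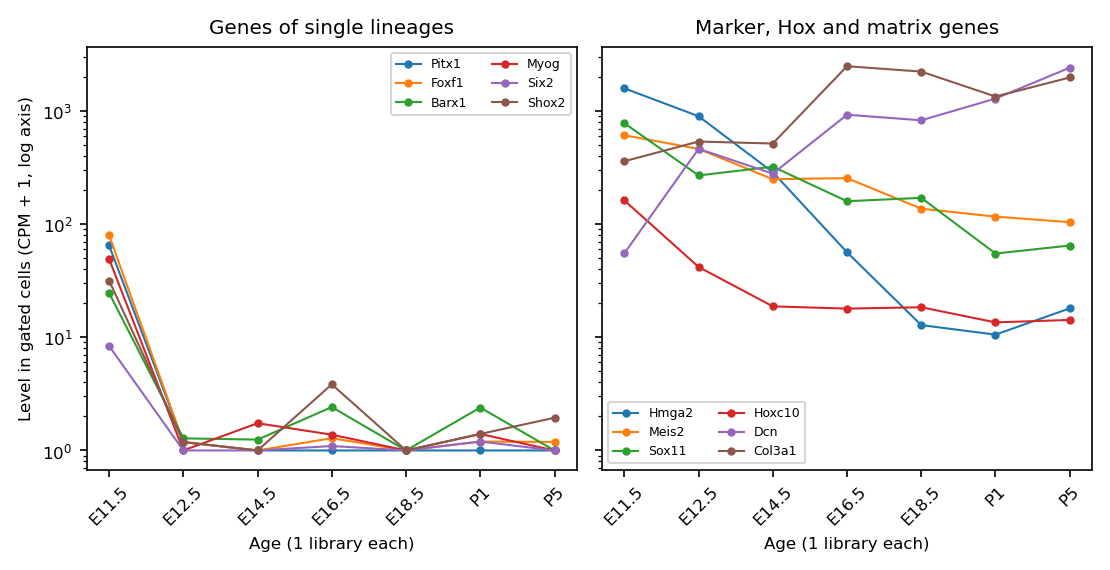
Levels of 12 genes in the cells that pass the gates at each age, 1 library each, as CPM + 1 on a log axis. On the left, genes of single lineages lie between 7.38 and 78.5 CPM at E11.5 and at 2.84 CPM or less afterwards; on the right, Hmga2, Meis2, Sox11 and Hoxc10 decline and Dcn and Col3a1 are higher at every later age than at E11.5.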

How the data were processed

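The authors dissociated gonads with trypsin, prepared 10x Genomics libraries (chemistry version 2) and ran Cell Ranger 3.1.0 on the mm10 index 3.0, so the deposited values are raw UMI counts per gene and cell, unnormalized, for called barcodes. A count is a molecule, and doublets were kept. Python 3.11.15, numpy 2.4.6, scipy 1.17.1, pandas 2.3.3 and scanpy 1.11.5 were used, and gene positions were those of GENCODE M21 (GRCm38) for 442 of 442 genes.

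The class, the lists and most comparisons were chosen with earlier results of these data known. UMIs were summed over cells to CPM, and ratios had the exact interval conditional on the summed UMIs. Genes with at least 20 CPM in either group and a 2-fold ratio were counted. For ranking, 10 CPM was added (50 CPM for the leading genes of clusters). Named were the rule's genes, the listed genes, the 15 highest and 15 lowest ratios and the 8 leading genes of each cluster; genes outside these were not named, and a few listed genes are not reported here.

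Class cells were log-normalized to 10000 UMIs and clustered on 1745 variable genes (mean between 0.0125 and 5, dispersion above 0.5), without the 357 listed genes, with 10 principal components, 30 neighbours and Leiden resolution 0.6 (leidenalg 0.10.2). The naming rule for clusters was set after they were seen. It asked for at least 3 list genes of 10 UMIs or more and for no other list with more leading genes. It left out the mesenchyme list and left unnamed the clusters high in Cdx2 or Foxa1. Clusters of low depth without a leading list gene were also to be left unnamed. Scrublet's automatic threshold marked 2 cells (0.0242%) and had not worked, so an alternative removed the 389 cells of the top 5%. Thinning to 3000 UMIs left out 70 class cells. Scripts were tested on simulated data. Depth limits values near 0, where 3 UMIs in the class are 0.0679 CPM.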

Additional observations from a re-analysis of the deposited data

How the results depend on the processing

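No paired analysis was possible because each age is 1 library without replicates. The class held 3768 cells, 2210 with at least 4 Nr2f2 UMIs and 2110 with at least 10000 UMIs, and the share with a Y-linked UMI was 26.2%, against 28.28% with at least 4 Nr2f2 UMIs, 27.87% with at least 2500 genes and 27.96% with at least 10000 UMIs. Against the Gata4-positive cells, 60 genes were higher and 155 lower at 2-fold and 20 CPM. The counts were 124 and 368 at 1.5-fold, 24 and 72 at 3-fold, 154 and 477 at a minimum of 5 CPM, 21 and 58 at 50 CPM, and 358 and 494 against Gata4-positive cells with Nr2f2 at 0, a comparator chosen after seeing the data. With that comparator the log2 ratio of Nr1h5 turned to 0.197. Without the cells of the joint cluster led by Rbp4 and Epcam, also chosen after seeing the data, the log2 ratios of Cldn7 (0.05987), Ambp (0.06896), Fam183b (0.07198) and Foxa1 (0.02453) changed sign.

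Cluster names moved more. Mural-like cells were 1.70% of the class, 19.19% at resolution 0.3, 6.237% both at resolution 1.0 and with list genes kept, and 7.818% when clustered with the Gata4-positive cells. Muscle precursor-like cells were 15.1%, 5.441% at resolution 1.0, 5.759% with list genes kept, 5.571% without the highest doublet scores and 4.809% when clustered jointly, and their share with a Y-linked UMI was 15.3%, then 2.439, 2.304, 2.5 and 2.956%, and 11.7% with 20 principal components. Epithelial-like cells were 8.65%, 10.85% with 20 principal components, 7.521% without the highest doublet scores and 0% jointly, where gut mesenchyme-like cells were 29.02% and limb and body wall-like cells 21.3%. A joint group of 245 cells led by Igfbp3 and Gata2 had 4 epithelial list genes as markers but was left unnamed, so the 0% does not mean that such cells were absent. The joint clustering was added after seeing the data. Over all alternatives, 276 log2 ratios of single genes (10 CPM added) stayed within their counting interval, 139 moved out of it and 5 changed sign; the cause was not tested. Depth limits every zero, since 3 UMIs in the class are 0.0679 CPM.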
